A study of Homo sapiens with 8 samples.

Results

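The 76 genes described here encode the proteins of the human mitochondrial ribosome that carry MRPL or MRPS symbols. They were taken from the table of read counts as the symbols made of MRPL or MRPS, a number and at most 1 further letter that had at least 10 counts in 2 or more libraries. There were 23393 genes in that file, of which 77 had such a name and 76 met the count rule. The other, MRPL53, was listed at 0 counts in all 8 libraries. The RNA came from MDA-MB-231, a human triple-negative breast cancer line of mesenchymal type that lacks argininosuccinate synthetase, and from a ρ0 derivative of it, clone 27, described as depleted of mitochondrial DNA. Cells of each line were kept in full medium or had arginine deiminase, an enzyme that removes arginine, added to it at 0.3 µg/mL for 48 h, as the sample labels have it. The study's own text speaks of arginine-free medium. Each of the 4 groups, parental control, parental starved, ρ0 control and ρ0 starved, held 2 libraries, 8 in all. No source says whether the 2 were separate cultures, so p-values measure the spread between these libraries, which may be technical. The ρ0 line is a single clone that was kept with ethidium bromide, uridine and pyruvate, so that clone, culture history and loss of mitochondrial DNA cannot be told apart. None of the 13 mitochondrially encoded protein genes was in the table, and the depletion could not be checked from these counts.

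The mitochondrial ribosome translates the few messenger RNAs of the mitochondrial genome, which encode core subunits of the respiratory chain and of ATP synthase. Its ribosomal RNAs come from mitochondrial DNA, whereas its proteins are all encoded in the nucleus, made in the cytosol and imported. Some of these proteins descend from bacterial ribosomal proteins and keep names such as uL16m or bS16m, and others were added in the mitochondrial lineage and carry names such as mL37 or mS25. The gene symbol does not always give the subunit, since MRPS30 (mL65) and MRPS18A (mL66) sit in the large subunit. MRPS36 is now assigned to the oxoglutarate dehydrogenase complex and no longer to the ribosome. On this account 49 of the 76 genes belonged to the large subunit, 26 to the small subunit and 1, MRPS36, to neither.

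The libraries held 25259503 to 31022155 counts, of which the 76 genes took 0.406% to 0.533%. Levels are given as CPM, counts scaled to library size with TMM factors, and folds as log2 fold change ± standard error (SE) from an edgeR quasi-likelihood fit over all 8 libraries, called at an adjusted p (Benjamini-Hochberg over 15262 genes) under 0.05. The 2 ρ0 control libraries differed from each other more than those of any other group. Their biological coefficient of variation, the spread between replicates beyond counting error, was 25.1%, against 5.18% for the parental controls, 2.25% for starved parental and 1.84% for starved ρ0 cells. Of the 76 genes 65 were higher in ρ0 control replicate 2 than in replicate 1, by a median of 0.382 on the log2 scale, while the median over all tested genes was 0. For 13 of the 76 the replicates differed by more than 1.5-fold. The summed level of the 76 genes was 4181 CPM in ρ0 control replicate 1 and 5244 CPM in replicate 2. It was 4650 and 4876 CPM in the parental controls, 5303 and 5377 CPM in starved parental cells, and 4304 and 4249 CPM in starved ρ0 cells. Comparisons that use the ρ0 controls are therefore also given without each of these libraries. Of the markers of the line, VIM, CD44, AXL, CAV1, ZEB1 and KRT18 were present in all libraries (lowest value 63.9 CPM) and ESR1 and PGR did not pass 0.18 CPM. The epithelial genes CDH1 and EPCAM reached 15.9 and 23.7 CPM in ρ0 libraries, where none was below 4.31 and 16.4 CPM, and did not pass 0.0709 and 0.521 CPM in parental libraries. The part of this in the ρ0 results was not tested. In bulk RNA a lower level per cell and fewer cells of a kind cannot be told apart.

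The promoters are shown first, because many members hold short sequence cores there and the choice of genes did not use them. RefSeq start sites (GRCh38.p14) gave a window of 300 bases, 250 before to 50 after the start, for 67 of the 76 genes. The ETS core CCGGAAG, read on both strands, was in 27 of the 67 windows (40.3%), against 10.7% of all 27305 promoter windows. That full set was not limited to genes expressed in these cells, and a comparison with expressed genes alone was not made. The YY1 core AAGATGGC was in 20 (29.9%), against 3.03% of all. At least 1 of these was in 39 windows (58.2%), against 13.1% of all. The GC box GGGCGG was in 40 (59.7%, against 44.6%) and the NRF1 core GCGCATGCG in 3 (4.48%, against 2.1%). The C/EBP-ATF element TTGCATCA, of the kind that amino acid response genes carry, was in 0 of the 67 and in 0.923% of all. Median GC content was 60.3% in the members' windows and 58.3% in all. Of 21 YY1 matches 16 started within 50 bases of the start site, and 25 of 35 ETS matches did. The 100 bases before the start are shown for the members on which the results below turn, 3 that rose with starvation in parental cells, 3 that fell in both lines, and the 3 MRPS18 paralogs. Capitals mark the cores on either strand, so that GCCATCTT is the YY1 core and CTTCCGG the ETS core read from the other strand.
MRPS25 (chr3:15065316-15065415, minus strand): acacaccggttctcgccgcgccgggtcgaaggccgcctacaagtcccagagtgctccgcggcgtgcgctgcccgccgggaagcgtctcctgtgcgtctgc
MRPL36 (chr5:1799838-1799937, minus strand): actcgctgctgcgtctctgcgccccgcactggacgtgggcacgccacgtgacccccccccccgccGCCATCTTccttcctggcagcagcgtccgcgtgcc
MRPL47 (chr3:179604639-179604738, minus strand): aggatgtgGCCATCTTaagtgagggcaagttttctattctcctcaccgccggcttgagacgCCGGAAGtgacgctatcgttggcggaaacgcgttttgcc
MRPS15 (chr1:36464385-36464484, minus strand): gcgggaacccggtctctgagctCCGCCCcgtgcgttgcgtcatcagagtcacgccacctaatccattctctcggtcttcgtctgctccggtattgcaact
MRPL16 (chr11:59810779-59810878, minus strand): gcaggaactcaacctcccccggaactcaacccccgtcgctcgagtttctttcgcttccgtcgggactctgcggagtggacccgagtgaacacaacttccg
MRPS22 (chr3:139343894-139343993, plus strand): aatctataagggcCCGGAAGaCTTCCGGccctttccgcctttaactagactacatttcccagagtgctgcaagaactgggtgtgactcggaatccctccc
MRPS18A (chr6:43687792-43687891, minus strand): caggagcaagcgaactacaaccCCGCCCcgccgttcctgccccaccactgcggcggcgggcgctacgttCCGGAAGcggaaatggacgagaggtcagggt
MRPS18B (chr6:30617740-30617839, plus strand): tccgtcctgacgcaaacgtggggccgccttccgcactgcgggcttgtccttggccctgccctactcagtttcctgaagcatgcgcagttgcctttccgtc
MRPS18C (chr4:83455958-83456057, plus strand): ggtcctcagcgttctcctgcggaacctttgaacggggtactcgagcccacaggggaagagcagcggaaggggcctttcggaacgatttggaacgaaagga
MRPS22 carries 2 ETS cores facing each other, and MRPL47 holds both an ETS and a YY1 core. MRPS25, MRPL16, MRPS18B and MRPS18C show none of the 5 motifs in these 100 bases, but the wider windows of MRPL16 and MRPS18C hold an ETS core and that of MRPS18B a YY1 core. A match is a description of letters and not a bound site, and binding was not measured. Among genes called higher in starved parental cells 12 of 23 windows held the ETS core and 9 the YY1 core, among genes called lower 8 and 5 of 20, and among the rest 7 and 6 of 24. Windows with either core were therefore found in genes of every response described below.

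Levels of different genes were compared only per coding length, as CPM per kilobase of the longest complete coding sequence in GENCODE v29. The 76 genes had a median of 93.6 CPM per coding kb and ran from 1.52 to 359. MRPL33 (bL33m, at 207 bases the shortest coding sequence of the 76) was highest with 359, followed by MRPS16 (bS16m, a component of the small subunit body) with 321, MRPL49 (mL49) with 283, MRPL51 (mL51) with 281 and MRPL17 (bL17m) with 262. The ranges of the 4 group means of these 5 genes overlapped one another, so that their order is not fixed. All 5 have coding sequences under the median length of 591 bases. The length leaves out untranslated sequence, whose reads may be among the counts, so short coding sequences may give high values. At the other end MRPL38 (mL38, of the central protuberance) had 1.52, MRPS24 (uS3m) 3.34, MRPS28 (bS1m) 7.67, MRPL39 (mL39) 19.9 and MRPS31 (mS31) 21.5 CPM per coding kb. Only MRPL38, MRPS24 and MRPS28 had a mean under 10 CPM. In GENCODE v29 each of these 3 shares exonic bases on its own strand with another protein-coding gene or read-through model, and the authors' rule for such reads is not given in the sources used here. Of the 76 members 33 share exonic bases with another protein-coding gene and 33 have at least 1 named pseudogene, up to 8 for MRPS21. Since the counting is not stated to use strand, such values may include reads of the partner. For the genes with all library values below, the partners on the other strand were NR2C2 for MRPS25, PSMA2 for MRPL32, ACTL6A for MRPL47, ABRAXAS1 for MRPS18C, RSPH9 for MRPS18A, COPB2 for MRPS22, ABHD8 for MRPL34 and CYB5RL and SSBP3 for MRPL37. On the same strand MRPS17 overlaps NIPSNAP2, MRPS16 overlaps DNAJC9 and MRPL46 overlaps a further gene model.

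**Figure D1:**
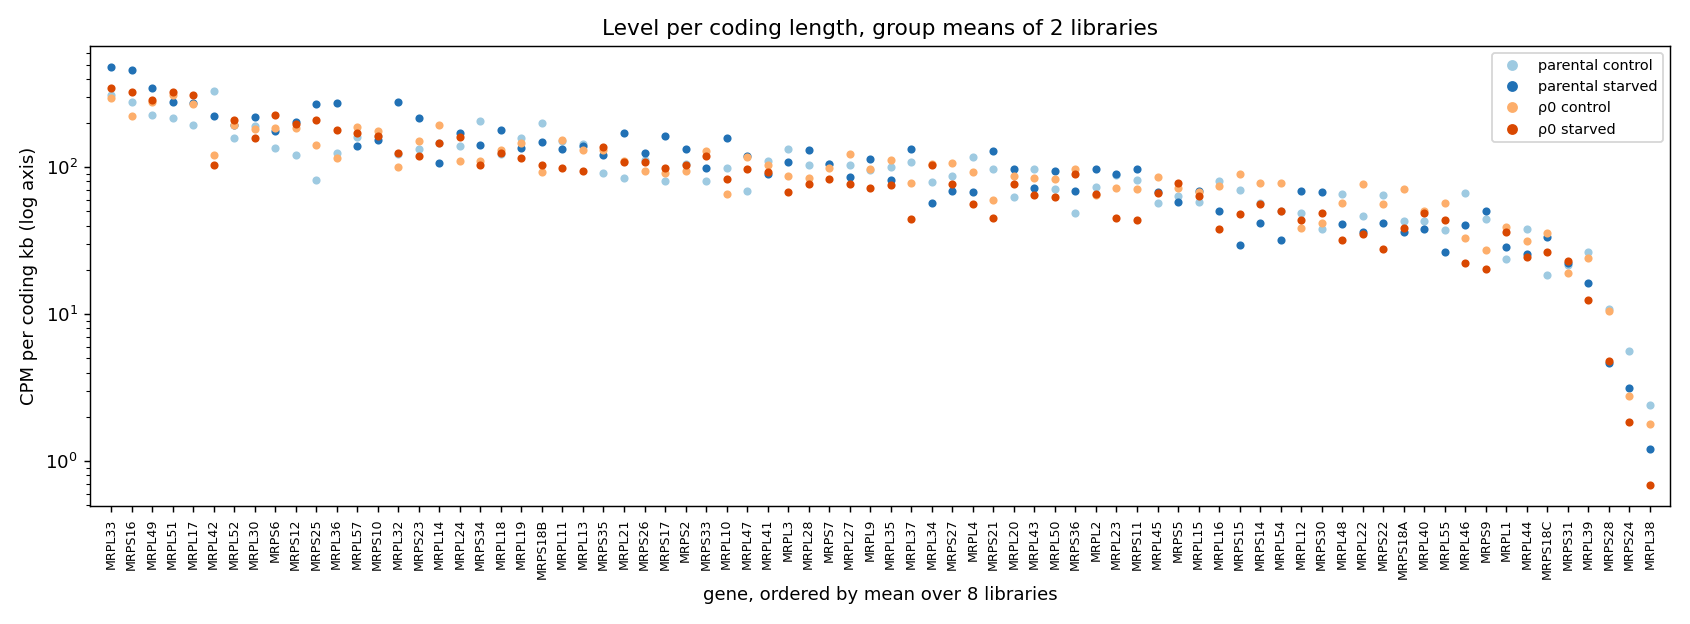
Group means of CPM per coding kb (log axis) for the 76 genes, ordered by their mean over 8 libraries. Each point is the mean of 2 libraries of 1 group. Most genes lie within a narrow band around the median of 93.6, and MRPS28, MRPS24 and MRPL38 drop away at the right end.

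The first comparison asked how arginine starvation changed these genes in parental cells. The response was split and not uniform. With starvation 26 of the 76 genes rose (34.2%) and 22 fell (28.9%), and 28 did not pass the test. Among all tested genes 30.4% rose and 35.5% fell, so in this fit neither share was far from that of genes at large. The median over members was 0.16 against -0.07 over all genes, with a range of -1.24 to 1.73. With a log2 fold change beyond 1 or -1 asked for as well, 5 members rose and 2 fell, against 12.7% and 22.1% of all tested genes. The changes in these genes were thus mostly under 2-fold. Scaling to total counts alone moved the median of all genes to -0.23 and that of members to 0, with 18 members higher and 27 lower. Upper quartile scaling gave 21 and 26, so the balance of rises and falls depends on the scaling. The main fit shares its spread with the ρ0 libraries, whose controls lay far apart. In a fit of only the parental libraries 39 of the 76 members rose and 29 fell, against 40.5% and 42.5% of all genes. Rises were thus a larger share of members than of all genes in that fit, and falls a smaller share. The medians there were 0.2 over members and -0.03 over all genes. With any 1 parental library left out the median was 0.11 to 0.21 over members and -0.06 to -0.09 over all genes. Fewer rises and falls were called in those fits, among members and among all genes.

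The largest rise was that of MRPS25 (mS25, a mitochondria-specific protein of the small subunit). It was at 43.2 and 41.1 CPM in the parental controls and at 139 and 140 CPM in starved parental cells, and at 53.7 and 94 CPM in ρ0 controls and 110 and 109 CPM in starved ρ0 cells. In parental cells the log2 fold change was 1.73 ± 0.23 (adjusted p = 0.00037), with no overlap between the groups. MRPL32 (bL32m, a zinc-binding protein whose maturation by the m-AAA protease is needed for assembly of the ribosome) went from 69.5 and 69.4 to 153 and 162 CPM (log2 1.18 ± 0.12, adjusted p = 9.4e-05). In ρ0 cells it was at 50.3 and 63.9 CPM in controls and 68.5 and 71.7 CPM with starvation. MRPL36 (bL36m), a very short protein of the large subunit, rose from 35.7 and 41.6 to 85.3 and 84.3 CPM (log2 1.13 ± 0.12, adjusted p = 0.00013). Its ρ0 values, 32.2 and 39.4 CPM in controls and 56.4 and 55.1 CPM with starvation, also did not overlap. MRPS17 (uS17m, in the body of the small subunit) moved from 30.8 and 31.9 to 62.8 and 65.4 CPM, and MRPL21 (bL21m) from 49.6 and 53.8 to 105 and 107 CPM. Their log2 fold changes were 1.03 ± 0.2 (adjusted p = 0.0028) and 1.03 ± 0.19 (adjusted p = 0.002). In ρ0 cells MRPS17 was at 27.1 and 44.2 CPM in controls and 36.7 and 39.7 CPM with starvation, and MRPL21 at 53 and 84 CPM without and 66.9 and 67 CPM with starvation. For both genes the starved ρ0 values lay between those of the 2 ρ0 controls.

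MRPS15 (uS15m, on the platform of the small subunit) fell most in parental cells. Its controls were at 50.8 and 56.5 CPM and its starved libraries at 21.9 and 23.5 CPM, a log2 fold change of -1.24 ± 0.14 (adjusted p = 0.00018). In ρ0 cells it was higher throughout and fell as well, from 60 and 79.1 to 36.6 and 37.4 CPM. MRPS28 (bS1m) was low in all libraries, with 6.03 and 6.04 CPM in parental controls and 2.65 and 2.59 CPM after starvation (log2 -1.2 ± 0.16, adjusted p = 0.00037). MRPL4 (uL4m) went from 123 and 129 to 72.6 and 72.6 CPM (log2 -0.8 ± 0.16, adjusted p = 0.0031), and in ρ0 cells from 81.2 and 119 to 61.6 and 59.6 CPM (log2 -0.72 ± 0.16, adjusted p = 0.01). MRPL46 (mL46, in the central protuberance) went from 54.2 and 57.5 to 33.1 and 34.2 CPM (log2 -0.73 ± 0.17, adjusted p = 0.0073). MRPL39 (mL39) had 26.3 and 29.9 CPM in controls and 16.7 and 17.9 CPM with starvation (log2 -0.7 ± 0.23, adjusted p = 0.028). With any 1 parental library left out its value was between -0.6 and -0.78 and was not called. MRPL16 (uL16m, near the tRNA sites of the large subunit) had 59.7 and 62.1 CPM without and 36.9 and 38.4 CPM with starvation (log2 -0.69 ± 0.08, adjusted p = 0.00025). In each of these genes both starved parental libraries lay below both parental controls.

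The split ran through both subunits. In the large subunit 16 of 49 genes rose and 15 fell, and in the small subunit 9 of 26 rose and 7 fell. Of all tested genes 30.4% rose and 35.5% fell. Within the large subunit, proteins with a bacterial counterpart had 11 rises and 7 falls among 30, and mitochondria-specific proteins 5 rises and 8 falls among 19. By place in the ribosome, 4 bacterial-type proteins of the small subunit body (MRPS5, MRPS12, MRPS16, MRPS17) had 3 rises and no fall. Mitochondria-specific proteins were not counted in the body here. Those of the small subunit had 4 rises and 3 falls among 10. The central protuberance (MRPL18, MRPL27, MRPL38, MRPL40, MRPL46, MRPL48, MRPL55), which contacts transfer RNAs and the small subunit head, had 5 falls and 1 rise among 7. Around the exit of the peptide tunnel 4 of 9 genes rose and 2 fell. Of the short bacterial-type proteins of the large subunit, MRPL32, MRPL33 and MRPL36 rose and MRPL34 and MRPL35 fell. These places were grouped from general knowledge of the structure, and the differences between them were not tested.

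**Figure D2:**
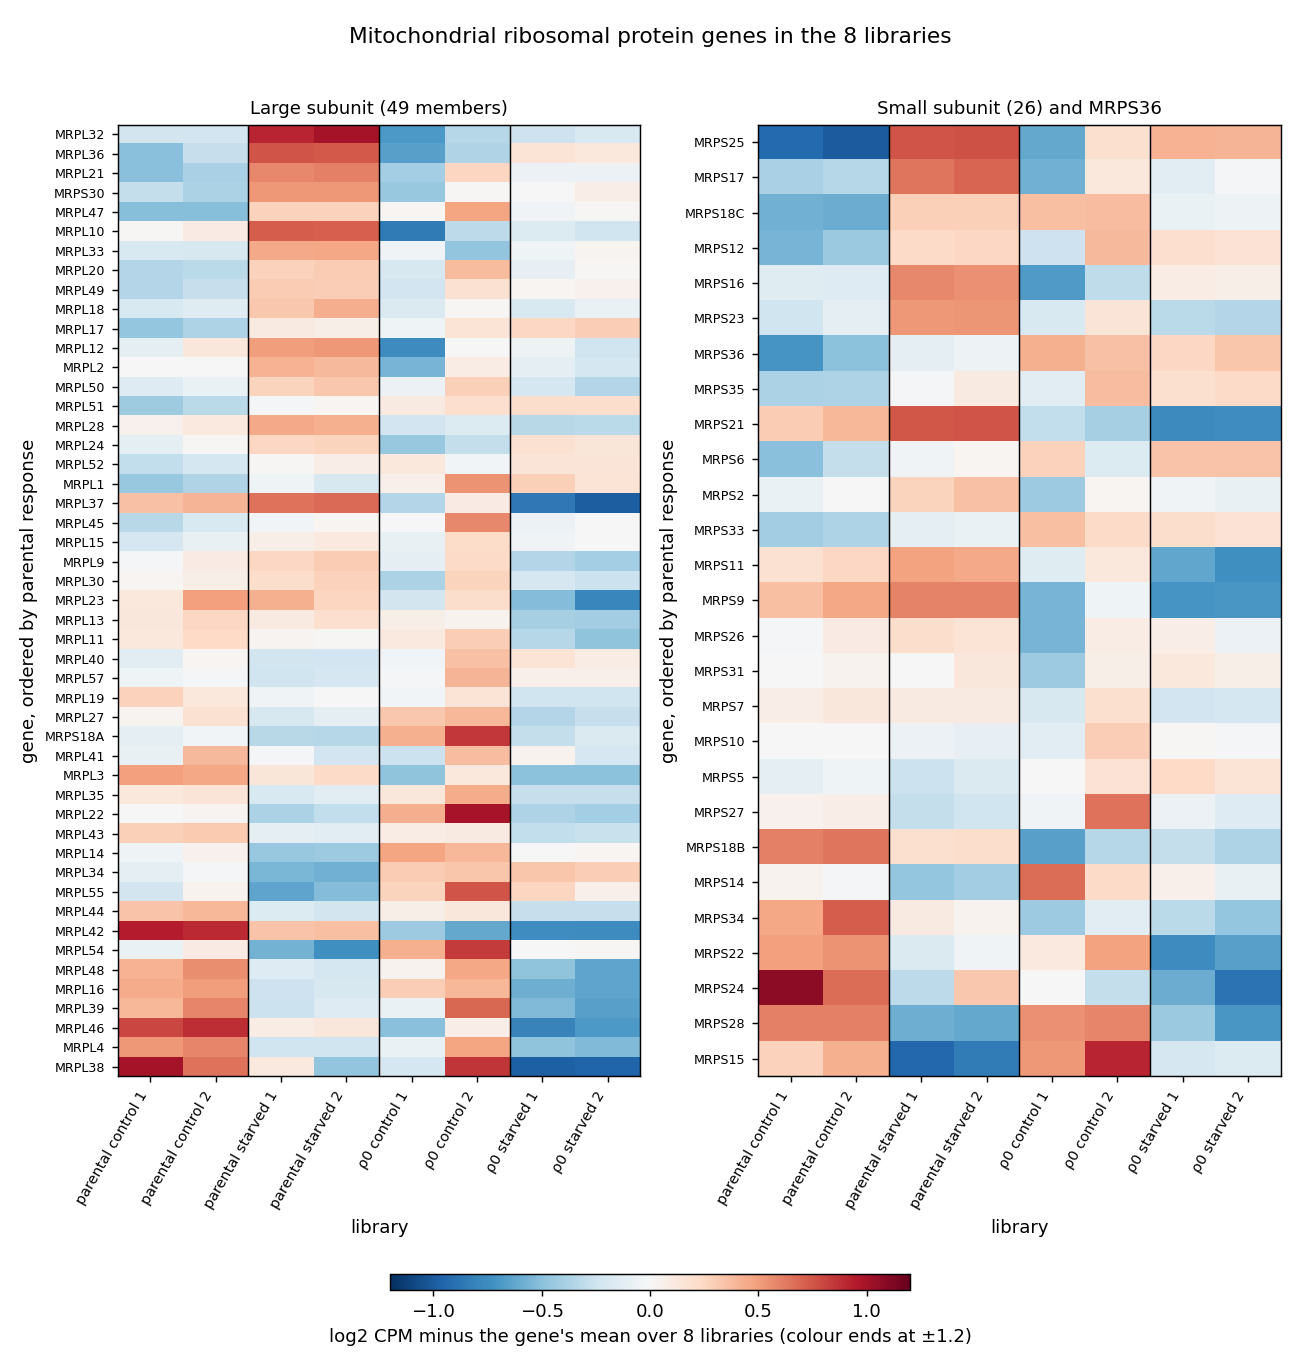
Log2 CPM of the 76 genes in the 8 libraries, each minus the gene's own mean over 8 libraries (red above, blue below, colours end at ±1.2). Genes of the large subunit are on the left and those of the small subunit with MRPS36 on the right, ordered by the response of parental cells. The starved parental columns turn from red at the top to blue at the bottom, and the ρ0 control columns differ from each other in many rows.

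In ρ0 cells the same treatment gave 3 rises and 28 falls, and 45 genes did not pass the test. The rises, MRPL24, MRPL36 and MRPS16, were 3.95% of the members against 19.2% of all tested genes, and the falls were 36.8% against 22.1%. The median over members was -0.22 and that over all genes -0.02. Of the members 4 fell past a log2 fold change of -1, against 8.19% of all genes, and none reached 1 (highest 0.64), which 4.22% of all did. The result moved with the libraries used. Without ρ0 control replicate 2 the median was -0.02 over members and 0 over all genes, so members lay close to genes at large. Without replicate 1 it was -0.37 over members and 0 over all genes. Without starved ρ0 replicate 1 the median was -0.22 over members and -0.02 over all genes, and without starved ρ0 replicate 2 it was -0.2 and 0. Fewer falls were called in these fits, among members and among all genes. In a fit of only the ρ0 libraries 12 members fell, against 11.8% of all genes. In limma-voom with group weights 14 fell, against 12.5% of all genes. Leaving out either ρ0 control library also lowered the pooled coefficient of variation from 12.4% to 3.46%, so that smaller differences pass the test in those fits.

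Falls were called in both subunits, 21 of 49 genes in the large (42.9%) and 7 of 26 in the small subunit (26.9%), against 22.1% of all tested genes. With 1 ρ0 control library left out more of all genes were called, so counts from those fits do not compare with the 22.1%. In the large subunit the falls took in 10 of 19 mitochondria-specific proteins (52.6%), with no rise. Of the 19, 15 fell and 1 rose without ρ0 control replicate 1, and 10 fell and 2 rose without replicate 2. On the platform of the small subunit 4 of 5 genes fell (MRPS11, MRPS15, MRPS18C, MRPS21), and 4 did so without either ρ0 control library, with 1 rise when replicate 1 was left out. In the small subunit head 1 of 8 fell and none rose. Without ρ0 control replicate 1, 5 of the 8 fell and none rose, and without replicate 2, 1 fell and 3 rose.

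Among the falls, MRPL22 (uL22m, which lines the peptide tunnel) was at 43.2 and 63.5 CPM in ρ0 controls and 24.8 and 24.2 CPM in starved ρ0 cells (log2 -1.12 ± 0.17, adjusted p = 0.0021). In parental cells it was at 32 and 32.7 CPM without and 24.6 and 26 CPM with starvation. MRPS22 (mS22) fell from 52.8 and 68.1 to 28.9 and 31.1 CPM (log2 -1.01 ± 0.13, adjusted p = 0.0011), and in parental cells from 68.5 and 70.8 to 43.4 and 47.3 CPM. Without ρ0 control replicate 1 or 2 the ρ0 log2 fold change was -1.37 or -0.81 for MRPL22 and -1.18 or -0.8 for MRPS22. MRPL16 fell from 53.8 and 57.8 to 29.1 and 28.3 CPM (log2 -0.96 ± 0.08, adjusted p = 0.00025). Its ρ0 controls lay close to each other, and the log2 fold change was -1.01 without ρ0 control replicate 1 and -0.89 without replicate 2. MRPL39 had 18.9 and 32.1 CPM in ρ0 controls and 13.8 and 12.7 CPM with starvation (log2 -0.95 ± 0.23, adjusted p = 0.015), and the value was -1.27 without replicate 1 and -0.5 without replicate 2. This fall was not called in a fit of only the ρ0 libraries (log2 -0.93, adjusted p = 0.079) or without either starved ρ0 library (log2 -0.98 and -0.87). MRPS15 fell by 0.91 ± 0.14 on the log2 scale (adjusted p = 0.0021). MRPS28 was at 5.79 and 5.95 CPM without and 2.91 and 2.44 CPM with starvation (log2 -1.13 ± 0.16, adjusted p = 0.0014). MRPL38 reached the fold limit at very low levels, 1.32 and 2.77 CPM in ρ0 controls and 0.777 and 0.787 CPM with starvation (log2 -1.39 ± 0.41, adjusted p = 0.031), and was not called without replicate 2 (log2 -0.74, adjusted p = 0.082), while without replicate 1 the value was -1.82 (adjusted p = 2.3e-05). Its parental values were 3.06 and 2.4 CPM in controls and 1.66 and 1.1 CPM with starvation.

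The 3 genes that rose in ρ0 cells had also risen in parental cells. MRPL36 was described above, with a ρ0 log2 fold change of 0.64 ± 0.12 (adjusted p = 0.005). MRPS16 went from 79.1 and 103 to 135 and 133 CPM in ρ0 cells (log2 0.55 ± 0.12, adjusted p = 0.0098). In parental cells it went from 115 and 114 to 190 and 186 CPM. Its ρ0 rise was not called in a fit of only the ρ0 libraries (log2 0.57, adjusted p = 0.068). Nor was it called without either starved ρ0 library (log2 0.56 and 0.58). MRPL24 (uL24m, near the exit of the peptide tunnel) went from 67.9 and 76.2 to 106 and 103 CPM in ρ0 cells (log2 0.53 ± 0.09, adjusted p = 0.003) and from 85.8 and 94 to 111 and 112 CPM in parental cells. In all 3 the starved libraries lay above the controls in either line. MRPS25, which had risen most in parental cells, showed a log2 difference of 0.57 ± 0.22 in ρ0 cells (adjusted p = 0.075). Its ρ0 controls lay far apart, and the value was 0.22 (adjusted p = 0.0017) without replicate 1 and 1.04 (adjusted p = 5.1e-11) without replicate 2.

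**Figure D3:**
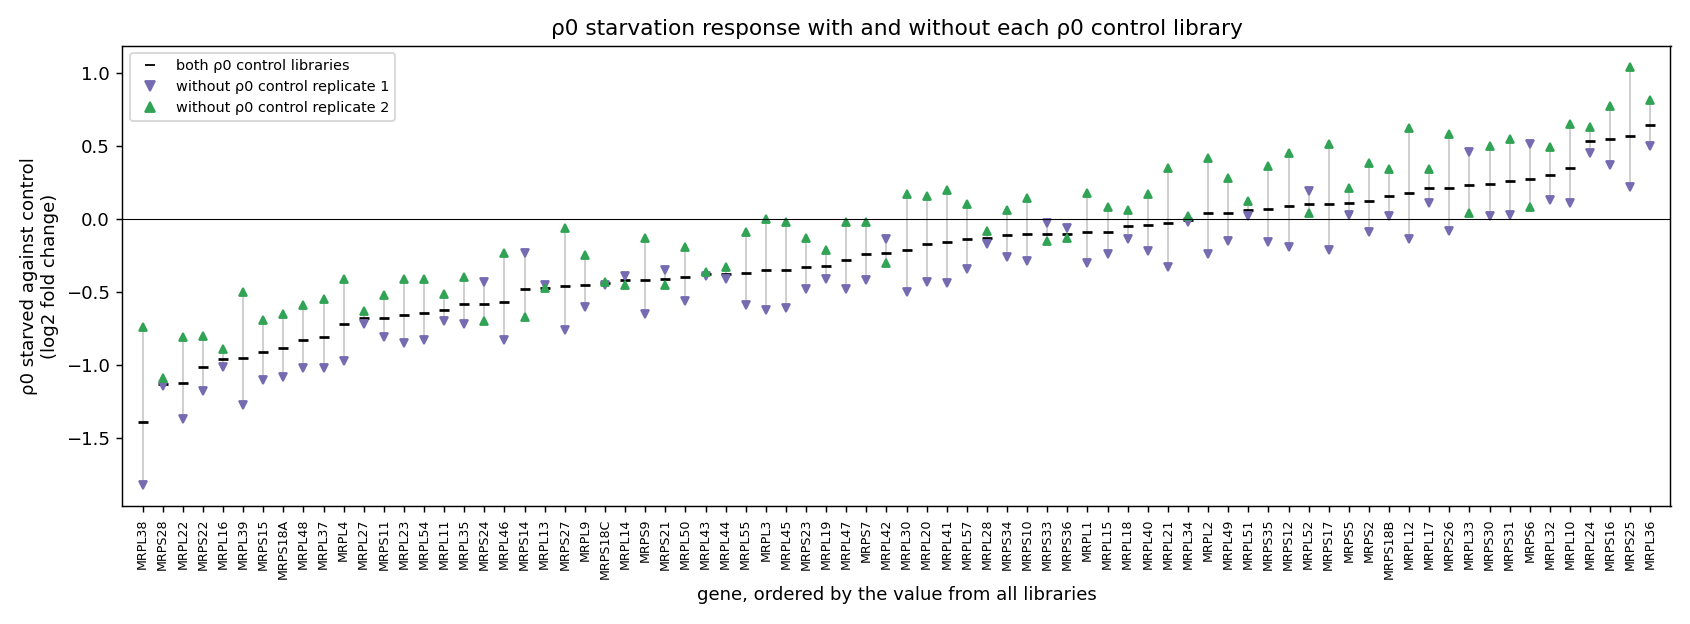
Log2 fold change of the 76 genes in starved against control ρ0 cells from all libraries (bar), without ρ0 control replicate 1 (downward triangle) and without replicate 2 (upward triangle), ordered by the first. For most genes the value without replicate 2 lies above the one without replicate 1, and for the genes at the left end, MRPL38 to MRPL23, all 3 values are below 0.

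Whether the responses differed between the lines was tested as ρ0 minus parental. This difference was below 0 for 24 genes (31.6% of members, against 18.8% of all tested genes) and above 0 for 3 (3.95%, against 21.6%), and 49 did not pass the test. The median was -0.32 over members and 0.02 over all genes. The members' median was -0.17 without ρ0 control replicate 2 and -0.43 without replicate 1, against 0.03 and 0.06 over all genes. The lower calls from all libraries were also made in both of those fits. The pooled coefficient of variation was 3.46% there, against 12.4% with all libraries, and smaller differences pass. The repeat of these calls is therefore little support. Without ρ0 control replicate 2 more members were also called above 0. With any of the other 6 libraries left out the members' median was -0.27 to -0.35, against -0.01 to 0.03 over all genes. Fewer genes were called in those fits, among members and among all genes. The share of members called lower was then nearer to that of all genes. Of the 24 genes 16 had risen in parental cells. The parental response is subtracted in this difference, so a rise there lowers the difference by construction. The counts that follow describe the calls and are not separate support. Of the 20 genes that rose in parental cells and passed no test in ρ0 cells, 13 had a lower response in ρ0 cells. All 3 genes called in opposite directions did so too, as did 7 of the 9 called lower in ρ0 cells and not in parental cells. Of the 16 genes lower in both lines 1, MRPL27, differed between the lines, and of the 3 higher in both none did.

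MRPS18C (bS18m, on the platform of the small subunit) had the largest such difference. It rose in parental cells from 7.94 and 7.82 to 14.4 and 14.4 CPM (log2 0.87 ± 0.11, adjusted p = 0.00026) and fell in ρ0 cells from 15.2 and 15.3 to 11.2 and 11.3 CPM (log2 -0.44 ± 0.1, adjusted p = 0.012). The replicates were close in all groups, and the difference was -1.31 ± 0.15 (adjusted p = 0.00093). MRPS21 (bS21m), of the same platform, moved in the same way, from 24.5 and 26.1 to 33.2 and 33.4 CPM in parental cells and from 16.2 and 15 to 11.7 and 11.8 CPM in ρ0 cells. Its log2 changes were 0.4 ± 0.1 and -0.41 ± 0.1 and the difference -0.81 ± 0.14 (adjusted p = 0.0042). MRPL50 (mL50) was the third gene with opposite calls, with 32.7 and 34.4 CPM without and 43.6 and 45.5 CPM with starvation in parental cells and 34.5 and 44.3 CPM without and 31.3 and 28.4 CPM with starvation in ρ0 cells. Its changes of 0.41 ± 0.13 and -0.4 ± 0.13 gave a difference of -0.81 ± 0.19 (adjusted p = 0.012). Its parental rise (adjusted p = 0.026) was not called with upper quartile scaling (0.089), with total counts (0.14) or without any 1 of the 4 parental libraries (0.08 to 0.13). Its ρ0 fall (adjusted p = 0.044) was not called with a replicate block (0.057) or without the filter on low counts (0.058). The ρ0 falls of all 3 genes were not called without either starved ρ0 library, in a fit of only the ρ0 libraries or in limma-voom with group weights. The parental rise of MRPS21 was not called with total counts (0.058), without parental control replicate 1 (0.055) or without starved parental replicate 2 (0.051).

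Of the other large differences, MRPL37 (mL37) was at 155 and 161 CPM in parental controls and 190 and 194 CPM with starvation, and fell in ρ0 cells from 94.8 and 130 to 66.9 and 61.2 CPM. The difference was -1.09 ± 0.2 (adjusted p = 0.0052) and was -1.3 without ρ0 control replicate 1 and -0.87 without replicate 2. MRPL47 (uL29m, at the tunnel exit) rose in parental cells from 51.7 and 51.8 to 89.3 and 89.1 CPM and was at 74.7 and 102 CPM in ρ0 controls and 71.4 and 74.2 CPM in starved ρ0 cells, a difference of -1.06 ± 0.19 (adjusted p = 0.005). For MRPS25 the difference was -1.16 ± 0.31 (adjusted p = 0.022) and for MRPL21 -1.07 ± 0.27 (adjusted p = 0.017). These 2 became -1.5 and -1.36 without ρ0 control replicate 1, and -0.73 and -0.72 without replicate 2. In the other direction MRPS18B (mS40) fell in parental cells from 153 and 157 to 115 and 117 CPM and was at 64.2 and 79.6 CPM without and 82.8 and 78.2 CPM with starvation in ρ0 cells, a difference of 0.59 ± 0.15 (adjusted p = 0.02). MRPL34 (bL34m) fell from 42.8 and 45.3 to 31.6 and 30.9 CPM in parental cells and stood at 57.2 and 58.3 CPM without and 58.1 and 56.5 CPM with starvation in ρ0 cells, a difference of 0.48 ± 0.11 (adjusted p = 0.013). MRPL42 (mL42) was just inside the threshold, at 0.34 ± 0.12 (adjusted p = 0.049).

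**Figure D4:**
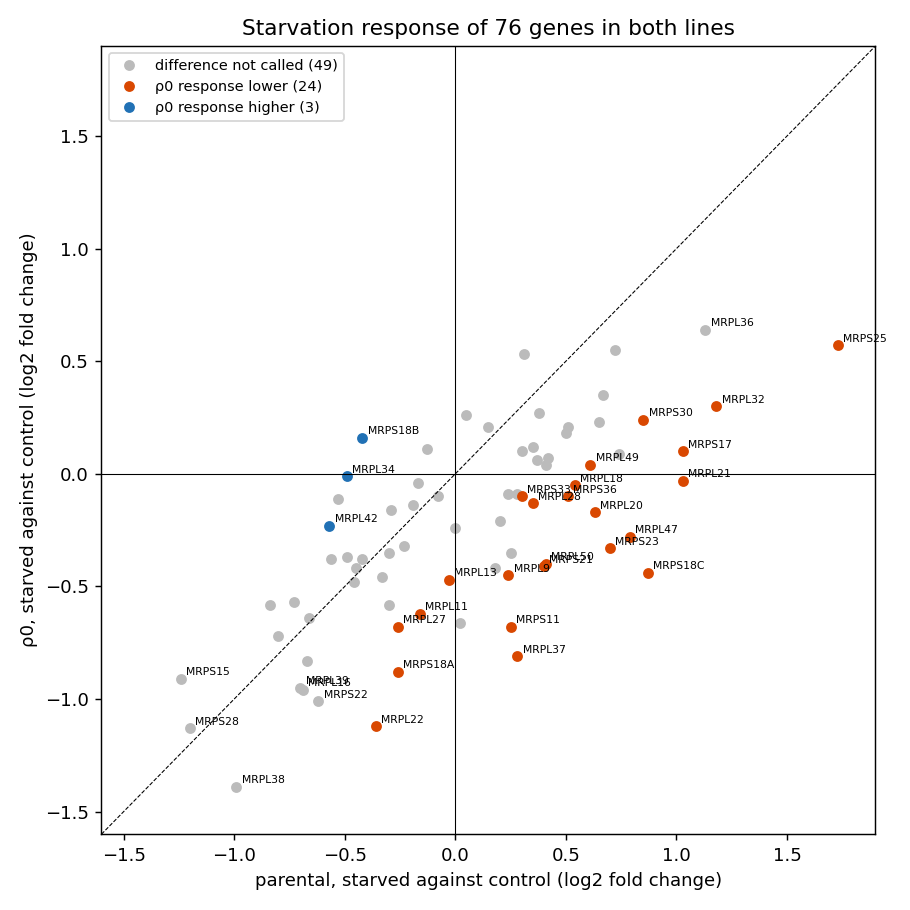
Log2 fold change with starvation in parental cells (horizontal) and in ρ0 cells (vertical) for the 76 genes, coloured by the test of the difference. Most of the 24 genes with a lower ρ0 response lie to the right, where parental cells rose. The difference subtracts the horizontal value, so this position follows in part from how it is computed. The genes at the lower left, such as MRPS15, MRPS28 and MRPL16, lie near the dashed line of equal response.

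In full medium, ρ0 controls differed from parental controls in 38 of the 76 genes. Of these 23 were higher (30.3%, against 30.5% of all tested genes) and 15 lower (19.7%, against 31.8%), with a median of 0.03 over members and -0.01 over all genes. Past a log2 difference of -1 there were 4 members, against 17.3% of all genes, and none passed 1 (highest 0.99), which 13.6% of all did. Higher and lower genes were thus both found, with a median near 0. With total counts as the scaling, the count was 17 higher and 18 lower. Without ρ0 control replicate 2 the median was -0.06 over members and 0.01 over all genes. Without replicate 1 these were 0.2 and -0.03. The calls from all libraries were also made in both fits. The pooled coefficient of variation was 3.46% there, against 12.4% with all libraries, so the repeat of these calls is little support. Without parental control replicate 1 the median was -0.03 over members and 0 over all genes, and without parental control replicate 2 it was 0.08 and -0.01. Fewer genes were called in these fits, among members and among all genes. A fit of only the 4 control libraries gave 11 members higher and 7 lower, against 23.2% and 25.1% of all genes. In that fit both shares were smaller among members than among all genes.

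MRPL42 was the gene most reduced in ρ0 cells, with 59.9 and 53.1 CPM against 156 and 151 CPM in parental controls (log2 -1.45 ± 0.08, adjusted p = 9.2e-06). It also fell with starvation in parental cells, to 103 and 104 CPM, and was at 48.4 and 48 CPM in starved ρ0 cells. MRPS18B followed with a log2 difference of -1.11 ± 0.11 (adjusted p = 9.5e-05), and MRPL46 with 22 and 32.9 CPM against 54.2 and 57.5 CPM (log2 -1.02 ± 0.18, adjusted p = 0.0016). In starved ρ0 cells MRPL46 was at 17.8 and 19.3 CPM. MRPS34 (mS34, a small subunit protein needed for its assembly) was at 67.2 and 83.3 CPM in ρ0 and 126 and 151 CPM in parental controls (log2 -0.88 ± 0.13, adjusted p = 0.00083). With starvation it was at 97.9 and 93.9 CPM in parental and 73 and 66.2 CPM in ρ0 cells. MRPS21 had a log2 difference of -0.7 ± 0.1 (adjusted p = 0.00057). MRPS24, at 1.53 and 1.25 CPM against 3.21 and 2.43 CPM (log2 -1.02 ± 0.28, adjusted p = 0.014), was among the 3 low genes. Its starved libraries had 1.23 and 1.91 CPM in parental and 1.01 and 0.828 CPM in ρ0 cells.

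MRPS36, the oxoglutarate dehydrogenase component, was raised the most in ρ0 controls, at 30.6 and 29.1 CPM against 13.9 and 16.2 CPM (log2 0.99 ± 0.11, adjusted p = 0.00017). With starvation it rose to 21.1 and 21.8 CPM in parental cells and stood at 27.1 and 28.6 CPM in ρ0 cells. MRPS18C was higher in ρ0 controls by 0.96 ± 0.11 (adjusted p = 0.00017), so that its control level in ρ0 cells was already near that of starved parental cells. MRPL47 was higher by 0.77 ± 0.14 (adjusted p = 0.0019) and MRPS25 by 0.81 ± 0.22 (adjusted p = 0.015), the latter 1.16 without ρ0 control replicate 1 and 0.4 without replicate 2. MRPS18A was at 35.8 and 48.2 CPM against 24.6 and 26.1 CPM in parental controls (log2 0.73 ± 0.14, adjusted p = 0.0032). The ρ0 controls enter both this comparison and the ρ0 response with opposite sign, so the values for a gene in the 2 are not independent.

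The MRPS18 genes are 3 paralogs whose products occupy different sites, MRPS18C in the bacterial position of the small subunit, MRPS18B elsewhere in the small subunit and MRPS18A in the large subunit. They followed 3 different patterns over the 4 groups. MRPS18A was at 24.6 and 26.1 CPM in parental controls and 21.2 and 21.1 CPM with starvation, which did not pass the test (adjusted p = 0.16), and fell in ρ0 cells to 21.9 and 23.7 CPM (log2 -0.88 ± 0.15, adjusted p = 0.0029). MRPS18B was higher in both parental controls than in any other library. MRPS18C was lower in both parental controls than in any other library. Each has its own named pseudogenes, 1 for MRPS18A and 2 each for MRPS18B and MRPS18C, whose reads could have been counted with them.

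**Figure D5:**
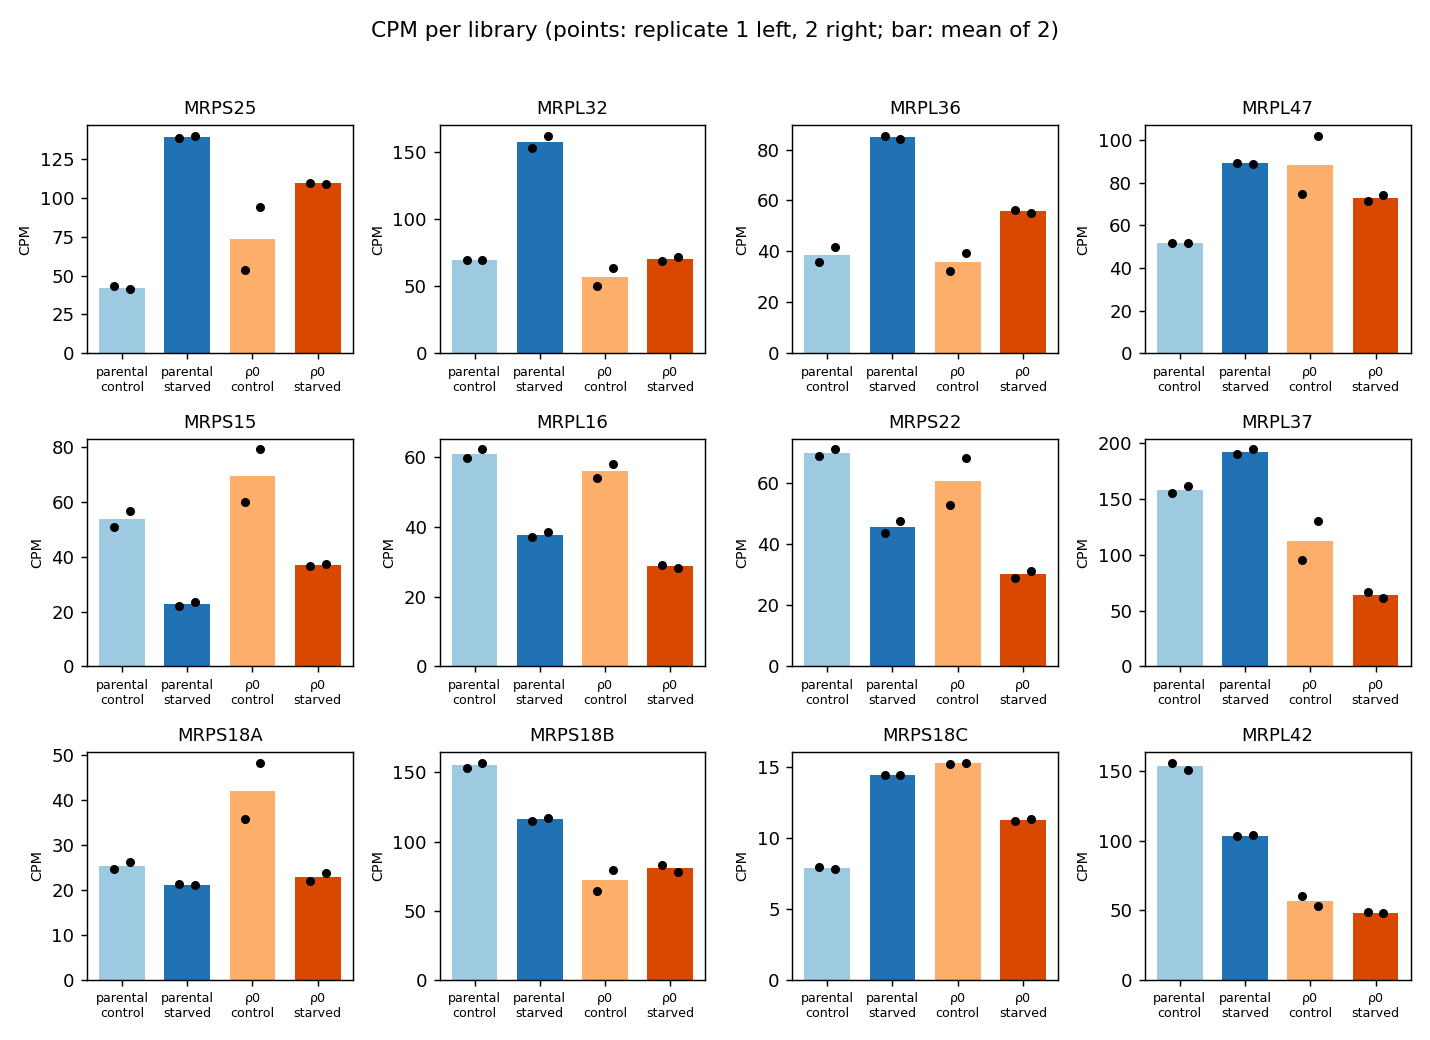
CPM in each library for 12 members, with bars for the mean of 2 libraries and points for replicate 1 (left) and replicate 2 (right), on axes that start at 0. The top row shows genes that rose in parental cells, the middle row genes that fell in ρ0 cells, and the bottom row the MRPS18 paralogs and MRPL42. The ρ0 control points lie apart in MRPS25, MRPL47, MRPS15 and MRPL37 and close together in MRPL16, MRPS18C and MRPL42.

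Genes that work with the mitochondrial ribosome but carry other names were read beside the members. Of 6 ribosomal proteins with other symbols 3 rose and 2 fell in starved parental cells. DAP3 (mS29), a GTP-binding protein of the small subunit, rose from 132 and 131 to 331 and 337 CPM (log2 1.35 ± 0.08, adjusted p = 1.6e-05) and in ρ0 cells from 151 and 171 to 210 and 209 CPM (log2 0.38 ± 0.08, adjusted p = 0.0089), a difference of -0.97 ± 0.12 (adjusted p = 0.0011). In ρ0 cells 2 of the 6 rose and 1, AURKAIP1, fell. Of 26 genes for assembly of the ribosome and modification of its RNA, 8 rose and 8 fell in parental cells and 3 and 7 in ρ0 cells. GTPBP10, a GTPase of large subunit assembly, rose from 28.5 and 26.4 to 110 and 114 CPM in parental cells (log2 2.03 ± 0.15) and from 27.4 and 37.6 to 68.1 and 68 CPM in ρ0 cells (log2 1.07 ± 0.14). MTG1, another GTPase of large subunit assembly, fell from 66.3 and 68.7 to 19.9 and 21.3 CPM in parental cells (log2 -1.71 ± 0.09) and from 16.9 and 17.3 to 7.87 and 7.37 CPM in ρ0 cells (log2 -1.16 ± 0.1). Of 16 translation factors and regulators 5 rose and 4 fell in parental cells, and 2 rose and 1 fell in ρ0 cells. LRPPRC, which stabilises mitochondrial messenger RNAs, rose in both lines, by a log2 fold change of 1.06 ± 0.16 in parental and 0.63 ± 0.16 in ρ0 cells. TUFM, the mitochondrial elongation factor Tu, stood at 296 and 306 CPM in parental and 156 and 208 CPM in ρ0 controls (log2 -0.73 ± 0.13, adjusted p = 0.0019). It did not pass the test with starvation in either line. In ρ0 against parental controls the 3 lists had 2 higher and 3 lower of 6, 6 and 8 of 26, and 1 and 6 of 16. Of all tested genes 30.4% rose and 35.5% fell in parental cells, 19.2% and 22.1% in ρ0 cells, and 30.5% were higher and 31.8% lower in ρ0 controls. Without ρ0 control replicate 1 the ρ0 response of the 3 lists had 2 rises and 2 falls, 5 and 12, and 3 and 7. Without replicate 2 it had 3 and 2, 9 and 7, and 8 and 3. For the controls the counts were 2 higher and 3 lower, 12 and 8, and 7 and 6 without ρ0 control replicate 1, and 2 and 4, 6 and 11, and 3 and 10 without replicate 2.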

How the data were processed

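RNA-seq was deposited by the authors as raw read counts per gene for 8 libraries. The submitters' processing notes name Bowtie, Partek and the build hg19, and the counting rule, annotation and use of strand are not given in the sources used here. Counts were fitted as deposited in edgeR 4.0.16 (R 4.3.3, limma 3.58.1) with TMM scaling, filterByExpr on the 4 groups (15262 genes kept, all 76 members among them) and the quasi-likelihood test, with 1 mean per group and no replicate block. There were 4 residual degrees of freedom, and a pooled coefficient of variation of 12.4%. SE was the log2 fold change divided by the root of F. On simulated counts for starved parental cells (15262 genes) edgeR called 27% of 100 genes changed by 0.6 (log2), 79% of 100 changed by 1, and 2 others. Only these genes were changed in the simulation and every group had the same spread, so the shares do not carry over to these data. Replicate numbers did not pair (correlations of deviations -0.201 to 0.0917).

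The 76 members and all lists, places and motifs were chosen with earlier results of these data known. Genes given with all 8 values were, per comparison, the 5 largest rises and 5 largest falls among members called, with a mean of at least 10 CPM and groups that do not overlap (for the difference between lines, the same sign in both replicate numbers), members past a log2 fold change of 1, members called in opposite directions and the MRPS18 paralogs. The 5 highest and 5 lowest levels were named by their level per coding length alone. Alternatives were other scalings, filters and tests (DESeq2 1.42.0, limma-voom), a replicate block, fewer libraries, and each library left out.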

Additional observations from a re-analysis of the deposited data

Results flagged for a closer look

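These are members whose response to starvation differed between the lines by the test of ρ0 minus parental (edgeR, Benjamini-Hochberg over all genes). The log2 difference was -1.31 for MRPS18C, -1.16 for MRPS25, -1.09 for MRPL37, -1.07 for MRPL21, -1.06 for MRPL47, -0.81 for MRPL50 and -0.81 for MRPS21. It was 0.59 for MRPS18B, 0.48 for MRPL34 and 0.34 for MRPL42. When each of the 8 libraries was left out in turn, the calls of MRPS18C, MRPL37, MRPL47 and MRPS21 were made every time. The other 6 were lost in at least 1 of these fits, and no cause was tested.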

How the results depend on the processing

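With each library left out in turn, the members called were 18 to 39 higher and 13 to 32 lower with starvation in parental cells, 2 to 22 and 12 to 52 in ρ0 cells, 0 to 18 and 8 to 52 for the difference between lines, and 10 to 39 and 7 to 33 for ρ0 against parental controls, where leaving out parental control replicate 1 gave 10 and 9 and replicate 2 gave 14 and 7. The ends with many calls came from the fits without a ρ0 control library, where more of all genes were called as well. At the ends with few calls fewer of all genes were called. In all 8 of these fits 18 of 26 parental rises and 12 of 22 falls were called, 2 of 3 and 12 of 28 in ρ0 cells, 0 of 3 and 7 of 24 for the difference, and 10 of 23 and 6 of 15 for the controls. Under the fold limit the counts were 5 higher and 2 lower in parental cells, 0 and 4 in ρ0 cells, and 0 and 4 between controls. Falls in ρ0 cells numbered 14 in limma-voom with group weights (an alternative chosen after seeing the data) and 12 in a fit of only the libraries compared, against 12.5% and 11.8% of all genes. Those fits gave 15 and 11 higher for ρ0 against parental controls, against 22.3% and 23.2% of all genes. They gave 9 and 7 lower, against 22.4% and 25.1%. In parental cells they gave 38 and 39 higher, against 37.4% and 40.5% of all genes. Each gave 29 lower there, against 43% and 42.5% of all genes. Lower calls of the difference were 15 with upper quartile scaling and 15 with total counts, against 14.9% and 15.2% of all genes. The members' median for ρ0 against parental controls turned to -0.07 with total counts, -0.03 without parental control replicate 1 and -0.06 without ρ0 control replicate 2, and was 0.2 without ρ0 control replicate 1. The cause was not tested. The replicate block gave 27 higher and 21 lower in parental cells, 3 and 27 in ρ0 cells, 2 and 22 for the difference and 23 and 12 between controls, and the numbers did not pair the samples. Depth limits most the 3 members with a mean under 10 CPM, MRPL38, MRPS24 and MRPS28.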
